A study of Homo sapiens with 38 samples.

Results

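The PAX genes PAX2, PAX3, PAX5, PAX6, PAX7 and PAX8 were followed during neural induction of H9 under graded WNT signalling. H9 is a widely used line of human pluripotent cells derived from an embryo, here of wild type genotype. They were chosen by name, as the PAX genes known from the neural tube, and are 6 of the 58219 genes in the deposited table. All 38 libraries of poly(A) RNA were used, in 19 groups of 2. The treated groups received CT (named by the design as an activator of WNT signalling and not spelled out in the labels) at 0.4, 0.8, 1.0, 2.0, 3.0 or 4.0 µM, CT at 4.0 µM with retinoic acid (RA) at 1.0 µM, or IWP2, an inhibitor of WNT secretion, at 2.0 µM. Untreated cells (CT0.0) were their controls, and every condition was sampled at day 4 and at day 8. Undifferentiated stem cells (D0 ESC) made up the remaining group. Groups are written by day and condition, so that D8 CT0.4 is 0.4 µM CT at day 8. In the design, IWP2 stands for the rostral forebrain, increasing CT for brain levels further and further caudal, and CT with RA for the spinal cord.

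PAX genes encode transcription factors that bind DNA through a paired domain. PAX2, PAX5 and PAX8 form a subfamily that marks the isthmus, the signalling centre at the boundary of midbrain and hindbrain. PAX3 and PAX7 form another, expressed in the dorsal neural tube and in the neural crest that leaves it. PAX6 is a regulator of the eye, the forebrain and the progenitors of the intermediate hindbrain and spinal cord. Several members also act outside the nervous system, PAX2 in the kidney, PAX5 in B cells, PAX8 in kidney and thyroid, and PAX3 and PAX7 in muscle.

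The 6 genes lie on 5 chromosomes in hg38 with GENCODE release 29. PAX2 is at chr10:100735603-100829941 on the plus strand and PAX7 at chr1:18631006-18748866 on the plus strand. On the minus strand lie PAX5 at chr9:36833275-37034185, PAX8 at chr2:113215997-113278950, PAX3 at chr2:222199888-222298996 and PAX6 at chr11:31784779-31818062. The start of the paired box shows how the members are related. The 90 coding bases below run 5′ to 3′ from the same point of the paired box of each gene, read from the GENCODE transcripts, and capitals mark the bases that all 6 share.
PAX2: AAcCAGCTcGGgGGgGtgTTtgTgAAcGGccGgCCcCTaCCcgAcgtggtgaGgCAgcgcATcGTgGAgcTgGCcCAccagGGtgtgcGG
PAX5: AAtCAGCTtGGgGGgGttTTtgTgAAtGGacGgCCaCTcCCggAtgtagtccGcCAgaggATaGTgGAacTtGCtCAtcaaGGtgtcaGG
PAX8: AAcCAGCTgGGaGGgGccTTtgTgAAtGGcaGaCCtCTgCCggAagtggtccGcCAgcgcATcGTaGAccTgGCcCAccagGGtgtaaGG
PAX3: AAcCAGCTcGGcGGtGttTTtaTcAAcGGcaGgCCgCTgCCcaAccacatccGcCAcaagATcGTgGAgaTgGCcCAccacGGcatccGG
PAX7: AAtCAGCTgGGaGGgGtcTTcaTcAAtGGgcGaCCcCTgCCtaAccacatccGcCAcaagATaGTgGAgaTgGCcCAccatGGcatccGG
PAX6: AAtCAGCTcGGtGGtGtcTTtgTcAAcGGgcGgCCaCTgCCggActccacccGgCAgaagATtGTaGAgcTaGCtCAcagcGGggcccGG

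Of these 90 bases, 45 (50%) were the same in all 6 genes. PAX3 and PAX7 shared 84.4% and PAX2 and PAX8 80.0%. PAX8 and PAX6 were the least alike, at 64.4%. Within the PAX2, PAX5 and PAX8 subfamily the other pairs shared 75.6% (PAX5 and PAX8) and 74.4% (PAX2 and PAX5).

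Levels are TPM, a length-corrected abundance scaled to a fixed total per library, so that genes can be compared with each other within a library. Changes are log2 fold changes ± SE on log2(TPM + 1), a scale that understates the change of low genes. A change was called, and is described as a rise or a fall, when limma's adjusted p was under 0.05 over all 28221 genes tested and the change was at least 1 log2 unit. Replicates are 2 libraries per group that the design calls biological replicates, without saying whether they were separate differentiations, so p-values measure the spread between such libraries. In 5 of the 38 libraries the closest library by correlation was not the other one of the group: both of D4 CT3.0, both of D8 CT0.0 and replicate 1 of D8 CT4.0. In bulk RNA, fewer cells that express a gene and less of its RNA per cell cannot be told apart.

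The genes differed in how widely they were present. PAX6 had at least 1 TPM in all 38 libraries, PAX3 in 35, PAX2 in 28 and PAX8 in 25. PAX7 reached 1 TPM in 5 libraries and PAX5 in 4, and both entered the tests through those libraries alone. PAX7 was at 0 in 8 libraries. Over the 9 conditions of a day, the limma F test passed for each of the 6 genes at day 4, where it passed for 46.4% of all genes, and for each at day 8 (57.9% of all genes). PAX5 and PAX7 were tested only because of the few libraries in which they were high, so their passing adds no support. With a filter at 5 TPM, 5 members passed on each day. Without 1 library at a time, 5 to 6 passed at day 4 and 6 at day 8.

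**Figure D1:**
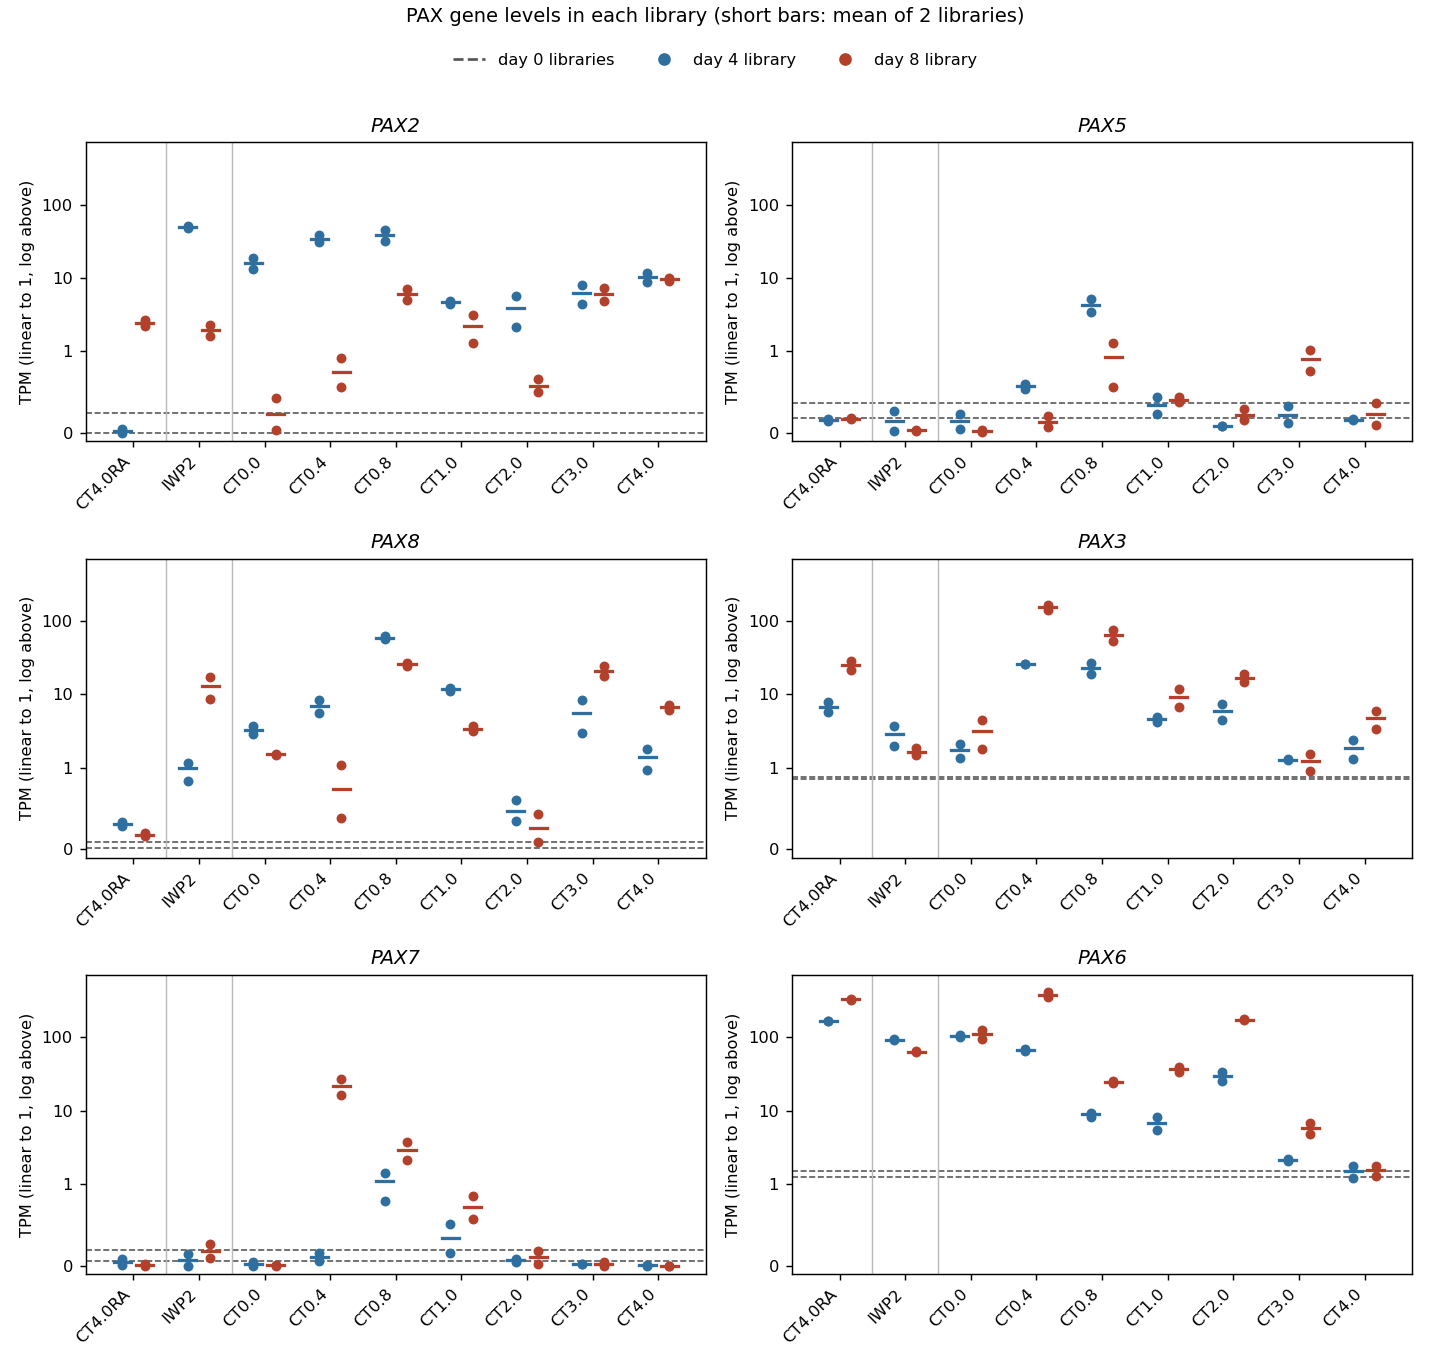
TPM of each PAX gene in every library, by culture condition (x axis), with day 4 in blue, day 8 in red and the 2 day 0 libraries as dashed lines; the y axis is linear up to 1 TPM and logarithmic above, and short bars are means of 2 libraries. PAX6 is lowest at 3.0 and 4.0 µM CT on both days, PAX5 and PAX8 peak at D4 CT0.8, PAX3 and PAX7 peak at D8 CT0.4, and PAX2 is highest at D4 IWP2.

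Neural induction itself came with 3 of the 6 genes. Between untreated cells at day 4 and stem cells, PAX2, PAX8 and PAX6 rose and no member fell, where 7.51% of all tested genes rose, 9.24% fell and 16.8% did either. PAX6 had 99.7 and 107 TPM in untreated cells at day 4, against 1.23 and 1.49 TPM in stem cells. PAX2 stood at 13.2 and 18.9 TPM against 0 and 0.243 TPM (log2 change 3.91 ± 0.32, adjusted p = 1.5e-09). PAX8 stood at 3.66 and 2.86 TPM against 0.0214 and 0.0891 TPM (2.01 ± 0.32, adjusted p = 2.2e-05). In each of these genes every day 4 library lay above both stem cell libraries. PAX3 had 1.38 and 2.09 TPM at day 4 and 0.860 and 0.884 TPM in stem cells, a change of 0.53 ± 0.33 that did not pass. The 8 pluripotency markers followed, POU5F1 and NANOG among them, summed to 157 and 175 TPM in untreated cells at day 4 and to 3334 and 3299.6 TPM in stem cells.

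Across the 7 comparisons of treated with untreated cells at day 4, 20 of 42 gene and comparison pairs were called, where 4.57% of all such pairs over the tested genes were. At day 8 the count was 20 of 42 as well, against 7.73%. The comparisons of a day share the same 2 untreated libraries. At D4 CT0.8 each of the 6 genes was called, 5 higher and PAX6 lower, whereas 2.68% of all genes were called there. The PAX2 call in that group was lost under 4 alternatives and the PAX7 call under 2. Both libraries of that group are among the 4 in which PAX5 reached the 1 TPM asked of a tested gene. At D8 CT0.8, 5 of 6 were called (4.54% of all genes), with PAX5 the exception. Both D8 CT0.8 libraries are among the 5 in which PAX7 reached 1 TPM.

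**Figure D2:**
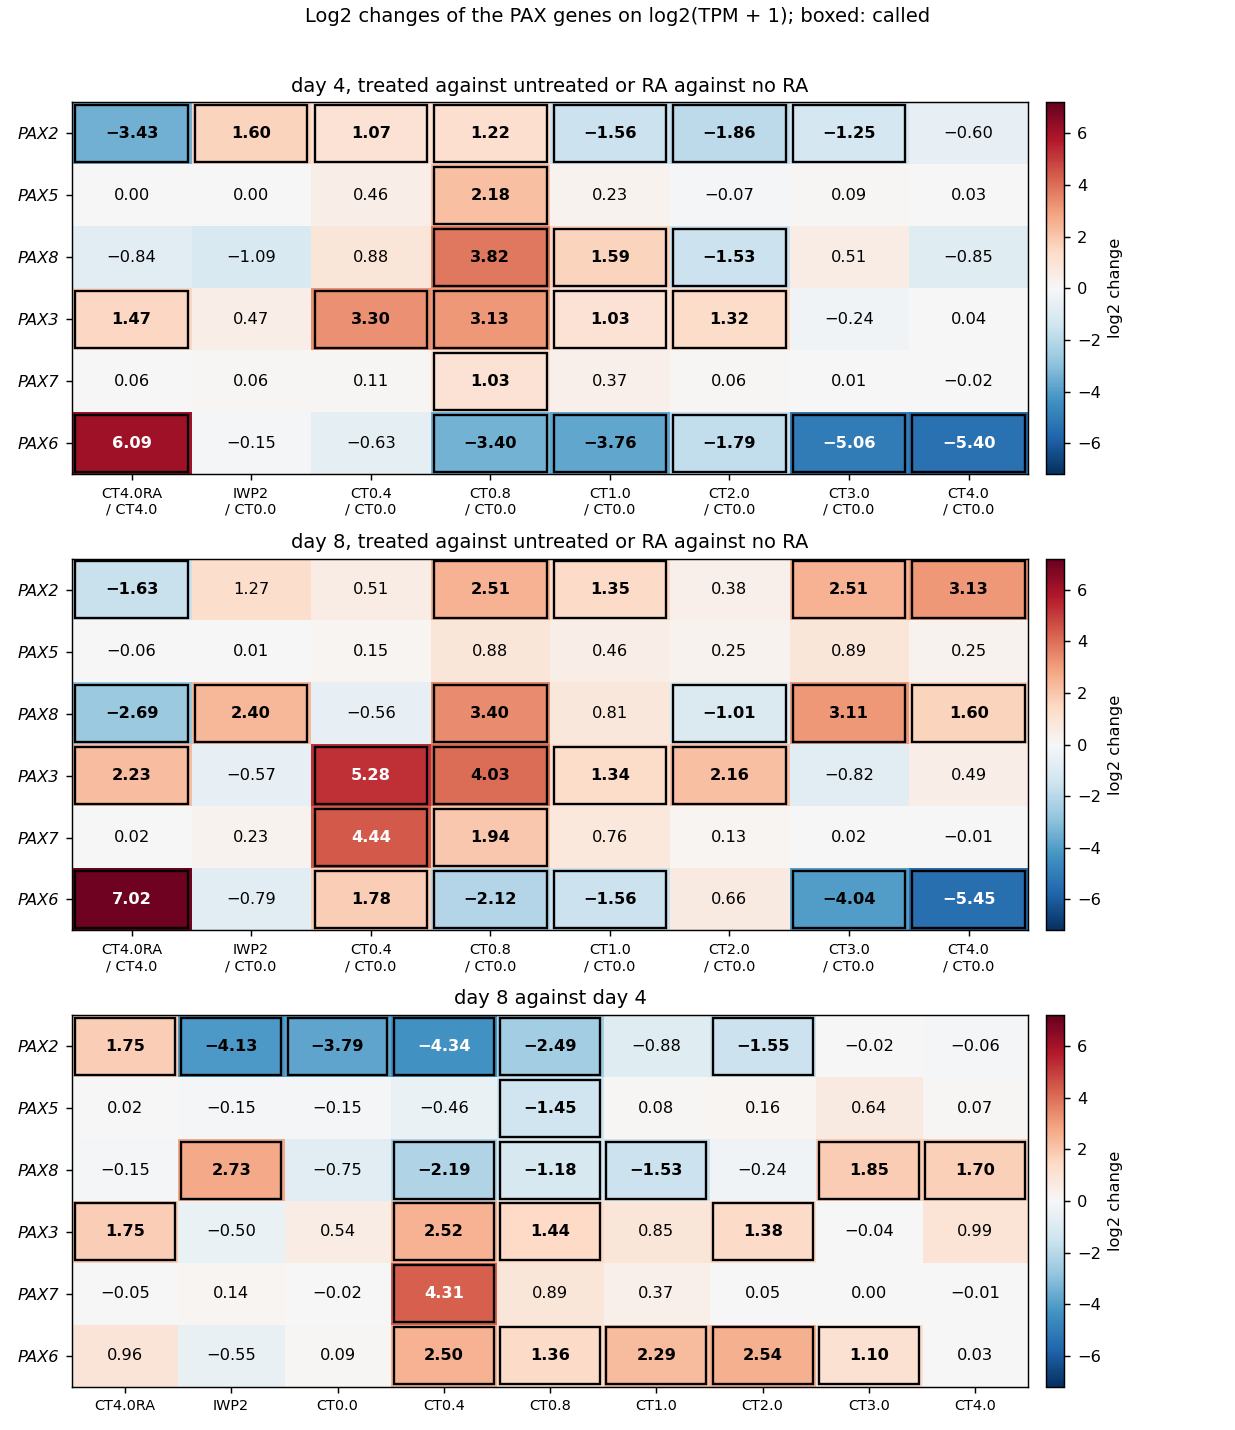
Log2 changes of the 6 genes (rows), printed in each cell and coloured from blue (lower) to red (higher), for treated against untreated cells and CT4.0RA against CT4.0 at day 4 and day 8, and for day 8 against day 4 in each condition; boxed bold values were called. In the CT0.8 column at day 4 all 6 cells are boxed, PAX6 at −3.40 and the others between 1.03 and 3.82.

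PAX6 did not follow the CT dose in one direction. Along the series at day 4 it had 99.7 and 107 TPM at CT0.0, 64.1 and 68.4 at CT0.4, 9.44 and 8.31 at CT0.8, 8.13 and 5.47 at CT1.0, 25.3 and 33.4 at CT2.0, 2.08 and 2.17 at CT3.0 and 1.78 and 1.20 at CT4.0. The level thus had a trough at CT0.8 and CT1.0, a second, lower maximum at CT2.0 and its lowest levels at CT3.0 and CT4.0, where the CT4.0 libraries overlapped those of stem cells. At day 8 the levels were 126 and 95.1 TPM at CT0.0, 353 and 406 at CT0.4, 25.0 and 23.7 at CT0.8, 34.1 and 39.03 at CT1.0, 178 and 169 at CT2.0, 6.80 and 4.78 at CT3.0 and 1.29 and 1.78 at CT4.0. The 2 libraries of a group lay closer together than the steps between most neighbouring doses.

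Each turn of that curve was tested between neighbouring doses. At CT0.8 PAX6 was lower than at CT0.4, by a log2 change of -2.77 ± 0.16 at day 4 (limma, adjusted p = 2.6e-10) and of -3.91 ± 0.16 at day 8 (adjusted p = 2.1e-13). It was higher at CT2.0 than at CT1.0 on both days, by 1.97 ± 0.16 at day 4 (adjusted p = 3.2e-08) and by 2.22 ± 0.16 at day 8 (adjusted p = 9.8e-09). At CT3.0 it was lower than at CT2.0 by a log2 change of -3.27 ± 0.16 at day 4 (adjusted p = 2.1e-12) and of -4.70 ± 0.16 at day 8 (adjusted p = 3.8e-15). The step to CT1.0 from CT0.8 gave no call, at -0.36 ± 0.16 at day 4 and 0.57 ± 0.16 at day 8.

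Against untreated cells, the lowest dose moved PAX6 differently on the 2 days. At D8 CT0.4 it rose 3.43-fold over D8 CT0.0 (log2 change 1.78 ± 0.16, adjusted p = 3.0e-08), while the change at D4 CT0.4 was -0.63 ± 0.16, under 1 log2 unit. Between the days the CT0.4 effect differed by 2.41 ± 0.23 (adjusted p = 1.6e-07). At CT4.0 PAX6 fell on both days, by log2 changes of -5.40 ± 0.16 at day 4 and -5.45 ± 0.16 at day 8, and its level of 1.49 ± 0.410 TPM at D4 CT4.0 stood near the 1.36 ± 0.180 TPM of stem cells (SD, n = 2 each). IWP2 gave no call, at -0.15 ± 0.16 at day 4 and -0.79 ± 0.16 at day 8.

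The widest PAX6 contrast among the 40 comparisons was that with and without retinoic acid. PAX6 had 168 and 167 TPM in D4 CT4.0RA, against 1.78 and 1.20 TPM in D4 CT4.0, a 113-fold difference of means (log2 change 6.09 ± 0.16, adjusted p = 6.0e-17). At day 8 it had 326 and 327 TPM in CT4.0RA, against 1.29 and 1.78 TPM in CT4.0, 212-fold (7.02 ± 0.16, adjusted p = 2.9e-18). The groups with and without RA did not overlap on either day. Ribosomal protein genes held 38.2% and 39.1% of TPM in D8 CT4.0RA and 29.8% and 29.7% in D8 CT4.0. The alternatives include a total without ribosomal protein and mitochondrial genes. Over all of them the PAX6 change lay between 5.93 and 6.75 at day 4 and between 6.88 and 7.66 at day 8, called each time.

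Of the isthmic subfamily, PAX8 reached the highest level, at D4 CT0.8. It had 56.4 and 61.9 TPM at D4 CT0.8, against 3.66 and 2.86 TPM at D4 CT0.0, 18.1-fold (log2 change 3.82 ± 0.32, adjusted p = 2.0e-08). Both neighbouring doses were lower, with 5.54 and 8.25 TPM at D4 CT0.4 and 12.3 and 11.2 TPM at D4 CT1.0. The steps were 2.95 ± 0.32 from CT0.4 up to CT0.8 (adjusted p = 2.3e-06) and -2.24 ± 0.32 from there to CT1.0 (adjusted p = 2.7e-04). A further fall followed to CT2.0, where PAX8 had 0.343 and 0.608 TPM (step -3.12 ± 0.32, adjusted p = 7.2e-07). PAX8 was therefore high at a dose at which PAX6 was low, and the other way round at CT2.0.

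PAX8 had a second place of expression at high dose. At D8 CT3.0 it stood at 24.4 and 17.7 TPM, against 0.0890 and 0.430 TPM at D8 CT2.0 (4.12 ± 0.32, adjusted p = 9.7e-10), and against 1.49 and 1.54 TPM in D8 CT0.0 (3.11 ± 0.32, adjusted p = 5.2e-08). At D8 CT0.8 it had 26.7 and 24.4 TPM, so the libraries of D8 CT0.8 and D8 CT3.0 overlapped, with D8 CT2.0 between them in dose at 0.260 ± 0.241 TPM (SD, n = 2). In the step to D8 CT3.0 from D8 CT2.0, 4 of 6 PAX genes were called, PAX2 and PAX8 higher and PAX3 and PAX6 lower, in a comparison where 12.9% of all genes were called. With RA PAX8 fell at day 8, to 0.162 and 0.203 TPM in CT4.0RA, against 7.23 and 6.08 TPM in CT4.0 (-2.69 ± 0.32, adjusted p = 7.7e-07). The day 4 value was -0.84 ± 0.32 and did not pass, but was called with a pseudocount of 0.1, at -1.79. The RA effects of the days differed by -1.85 ± 0.45 (adjusted p = 0.0062), and by -2.79 with that pseudocount, called each time.

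Under WNT inhibition PAX8 was called at day 8. It had 8.54 and 17.4 TPM in D8 IWP2, against 1.49 and 1.54 TPM in D8 CT0.0, 8.56-fold (2.40 ± 0.32, adjusted p = 1.6e-04), where 0.425% of all genes were called. The D8 IWP2 libraries lay well apart, and both were above either control. At day 4 the change was -1.09 ± 0.32 and did not pass (0.837 and 1.16 TPM in D4 IWP2, 3.66 and 2.86 TPM in D4 CT0.0). The IWP2 effects differed between the days by 3.49 ± 0.45 (adjusted p = 2.3e-04). The 2 D8 CT0.0 libraries are among those that stood apart, and the D8 IWP2 change ranged from 1.92 to 2.93 when settings were altered or a library left out, called each time.

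PAX5 was the scarcest of the subfamily. It had 3.40 and 5.11 TPM at D4 CT0.8, against 0.0552 and 0.239 TPM at D4 CT0.0 (2.18 ± 0.19, adjusted p = 4.8e-08), and was under 1 TPM in every other day 4 library. At day 8 it had 0.566 and 1.29 TPM at CT0.8 and 1.06 and 0.757 TPM at CT3.0, the same groups in which PAX8 was high. The day 8 changes against untreated cells were 0.88 ± 0.19 and 0.89 ± 0.19, below 1 log2 unit. With ribosomal protein and mitochondrial genes taken out of the total they were 1.18 and 1.23, and called. PAX5 fell in the step to D4 CT1.0 from D4 CT0.8 (-1.95 ± 0.19, adjusted p = 2.1e-06), as did PAX2, PAX8 and PAX3, which makes 4 of 6 in a step where 0.943% of all genes were called.

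PAX2 had its highest level under WNT inhibition. It had 51.4 and 48.7 TPM in D4 IWP2, against 13.2 and 18.9 TPM in D4 CT0.0 (1.60 ± 0.32, adjusted p = 0.018), the single PAX call in a comparison that called 0.283% of all genes. The call was lost without replicate 1 of D4 CT0.0 (1.36) and without either D4 IWP2 library (1.56 and 1.64). Over the alternatives the change lay between 1.36 and 1.84 and its adjusted p between 0.0144 and 0.246. Along the dose at day 4, CT0.4 gave 30.7 and 38.04 TPM of PAX2, with 45.4 and 31.8 at CT0.8, 4.48 and 4.93 at CT1.0, 2.17 and 5.73 at CT2.0, 8.13 and 4.44 at CT3.0 and 8.71 and 11.7 at CT4.0. The rise at CT0.4 (1.07 ± 0.32, adjusted p = 0.033) was lost without any 1 of the libraries compared, at 0.83 to 1.31, with adjusted p-values of 0.0147 to 0.261 over all alternatives. The rise at CT0.8 (1.22 ± 0.32, adjusted p = 0.016) was lost without replicate 1 of D4 CT0.0, at 0.98, and without replicate 1 of D4 CT0.8, at 0.97, with adjusted p-values of 0.0084 to 0.199 over all alternatives. In the step to CT1.0 from CT0.8 PAX2 fell by 2.78 on the log2 scale (SE 0.32, adjusted p = 2.5e-05).

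By day 8 PAX2 was highest at the other end of the series. It had 10.04 and 9.24 TPM in D8 CT4.0, against 0.0344 and 0.425 TPM in D8 CT0.0 (3.13 ± 0.32, adjusted p = 5.7e-08), whereas the change at D4 CT4.0 was -0.60 ± 0.32. Between the days the CT4.0 effect differed by 3.73 ± 0.46 (adjusted p = 5.6e-06). PAX2 itself was not called between the days at CT4.0, with means of 10.2 TPM at D4 CT4.0 and 9.64 TPM at D8 CT4.0. In untreated cells its mean fell from 16.0 TPM at day 4 to 0.230 TPM at day 8. With RA PAX2 fell on both days. PAX2 had 0.0544 and 0 TPM in D4 CT4.0RA, against 8.71 and 11.7 TPM in D4 CT4.0 (-3.43 ± 0.32, adjusted p = 3.8e-08). At day 8 it had 2.68 and 2.23 TPM in CT4.0RA, against 10.04 and 9.24 TPM in CT4.0 (-1.63 ± 0.32, adjusted p = 4.7e-04), a smaller effect by 1.81 ± 0.46 (adjusted p = 0.0080).

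PAX8 has an antisense neighbour. PAX8-AS1 overlaps PAX8 on the opposite strand, and the sources used here do not say whether the libraries kept strand, so reads of the 2 genes cannot be told apart with certainty. PAX8-AS1 had 9.61 and 8.25 TPM at D4 CT0.8, against 1.59 and 0.788 TPM at D4 CT0.0 (2.20 ± 0.26, adjusted p = 4.7e-06). It also rose at D8 CT3.0 over D8 CT2.0 (1.32 ± 0.26), to 1.68 and 1.35 TPM. The same limit holds for PAX3 with CCDC140, which reached 4.53 TPM at most, and for PAX6 with ELP4 and PAUPAR, whose highest values were 54.4 and 0.901 TPM. It also holds for PAX5 with AL450267.1 and AL161781.2, at most 0.930 and 0.193 TPM. On its own strand PAX5 overlaps the microRNA genes MIR4540 and MIR4476, at most 3.57 and 2.31 TPM. MIR4540 had its highest mean at D4 CT0.8, as PAX5 did.

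PAX3 was highest at CT0.4 and CT0.8 on both days, though not confined to these doses. It had 25.7 and 25.6 TPM at D4 CT0.4, against 1.38 and 2.09 TPM at D4 CT0.0 (3.30 ± 0.33, adjusted p = 4.5e-07), 14.8-fold, in a comparison in which 2 of 6 PAX genes and 2.23% of all genes were called. At D4 CT0.8 the level was 27.1 and 19.0 TPM, overlapping D4 CT0.4. At D4 CT1.0 it was lower than at D4 CT0.8, with 4.96 and 4.15 TPM (-2.10 ± 0.33, adjusted p = 5.8e-04). PAX3 was also called higher at CT2.0 than in untreated cells on both days. The means were 5.91 TPM at D4 CT2.0 against 1.73 TPM, and 16.8 TPM at D8 CT2.0 against 3.16 TPM. The day 4 call was lost under 2 alternatives. The day 8 change lay between 1.69 and 2.64 over all alternatives, called each time.

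At day 8 PAX3 and PAX7 peaked together at 0.4 µM. PAX3 had 166 and 139 TPM in D8 CT0.4, against 4.49 and 1.83 TPM in D8 CT0.0, 48.3-fold (5.28 ± 0.33, adjusted p = 4.0e-11). PAX7 had 26.8 and 16.2 TPM in D8 CT0.4, against 0.0142 and 0 TPM in D8 CT0.0 (4.44 ± 0.21, adjusted p = 4.5e-13). With PAX6 these were 3 of 6 genes called, all higher, where 6.03% of all genes were called and 3.55% rose. Both D8 CT0.4 libraries are among the 5 in which PAX7 reached the 1 TPM asked of a tested gene. At D8 CT0.8 PAX3 had 74.8 and 53.9 TPM and PAX7 3.71 and 2.16 TPM. Both were lower there than at D8 CT0.4, PAX3 by a log2 change of -1.25 ± 0.33 (adjusted p = 0.0074) and PAX7 by -2.50 ± 0.21 (adjusted p = 1.1e-08). The PAX3 call was lost without replicate 1 of D8 CT0.4, at -1.12, and without replicate 2 of D8 CT0.8, at -1.01, with adjusted p-values of 0.0051 to 0.101 over all alternatives.

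PAX7 was low at day 4. At D4 CT0.4, where PAX3 was already at 25.6 ± 0.107 TPM (SD, n = 2), PAX7 had 0.155 and 0.0525 TPM. PAX7 rose at D8 CT0.4 over D4 CT0.4 by 4.31 ± 0.21 (adjusted p = 9.4e-13) and PAX3 by 2.52 ± 0.33 (adjusted p = 2.5e-06). The CT0.4 effect differed between the days for PAX7 by 4.33 ± 0.30 (adjusted p = 1.3e-09) and for PAX3 by 1.98 ± 0.46 (adjusted p = 0.0046). At day 4 PAX7 passed 1 TPM in 1 library, at D4 CT0.8 with 1.41 and 0.796 TPM, and its call there (1.03 ± 0.21, adjusted p = 0.0024) was lost without replicate 1 of that group, at 0.81, and without replicate 1 of D4 CT0.0, at 0.996, among adjusted p-values of 6.3e-04 to 0.066 over the alternatives.

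PAX3 rose with RA. It had 28.9 and 21.7 TPM in D8 CT4.0RA, against 3.36 and 6.02 TPM in D8 CT4.0 (2.23 ± 0.33, adjusted p = 1.3e-05). At day 4 it had 7.79 and 5.79 TPM in CT4.0RA, against 1.32 and 2.37 TPM in CT4.0 (1.47 ± 0.33, adjusted p = 0.0019). PAX7 had 0 and 0.0224 TPM in D8 CT4.0RA and was listed at 0 in both D8 CT4.0 libraries. RA at day 4 gave 3 of 6 calls (5.84% of all genes) and at day 8 gave 4 of 6 (8.87% of all genes, 4.54% higher and 4.33% lower). PAX5 and PAX7 were the genes without a call on either day.

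Because PAX3 and PAX7 peaked in the same group, their promoters were compared. The windows run from 250 bases before to 50 after the gene's start in RefSeq (GRCh38.p14), PAX3 at chr2:222298949-222299248 on the minus strand and PAX7 at chr1:18630596-18630895 on the plus strand. Capitals mark the matches to the motifs searched on both strands.
PAX3: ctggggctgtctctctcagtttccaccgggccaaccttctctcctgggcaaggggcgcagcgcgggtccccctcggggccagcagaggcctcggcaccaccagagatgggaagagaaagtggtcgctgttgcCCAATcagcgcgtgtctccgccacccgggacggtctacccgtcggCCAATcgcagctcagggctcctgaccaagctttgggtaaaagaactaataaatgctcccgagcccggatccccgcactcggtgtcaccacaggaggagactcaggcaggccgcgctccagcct
PAX7: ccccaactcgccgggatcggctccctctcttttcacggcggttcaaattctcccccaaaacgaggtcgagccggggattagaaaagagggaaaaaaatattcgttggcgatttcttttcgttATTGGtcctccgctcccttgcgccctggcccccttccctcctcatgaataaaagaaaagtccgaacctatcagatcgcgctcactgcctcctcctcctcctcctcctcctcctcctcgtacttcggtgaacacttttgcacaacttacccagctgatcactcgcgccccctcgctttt

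The motifs were CTTTGAT or CTTTGTT for the WNT effectors TCF and LEF, AGGTCA, the half-site of nuclear receptors such as those for retinoic acid, and CCAAT, a common promoter element. No window of the 6 genes, 15 in all with 9 for PAX6 and 2 for PAX2, held the TCF and LEF motif, which 7.61% of 35116 windows of all genes held. None held AGGTCA (13.8% of all windows). CCAAT was in the windows of PAX8, PAX3 and PAX7 and in 3 of the 9 of PAX6, and 34.6% of all windows held it. Both promoters above contain 21 CpG dinucleotides.

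The make-up of PAX RNA changed by group. PAX6 had the largest share of the summed TPM of the 6 genes in 12 groups, PAX2 and PAX8 in 3 each and PAX3 in 1. PAX8 led at D4 CT0.8 with 44.1% of 135 TPM and at D8 CT3.0 with 60.0% of 35.0 TPM. PAX2 led at D4 CT4.0 with 67.2% of 15.1 TPM and PAX3 at D8 CT0.8 with 51.5% of 124 TPM. The summed level was highest at D8 CT0.4 (555 TPM, 68.3% of it PAX6 and 27.5% PAX3) and, apart from stem cells at 2.81 TPM, lowest at D4 CT4.0. PAX1, PAX4 and PAX9, the family members outside this set, together stayed at or under 0.683 TPM in every library.

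**Figure D3:**
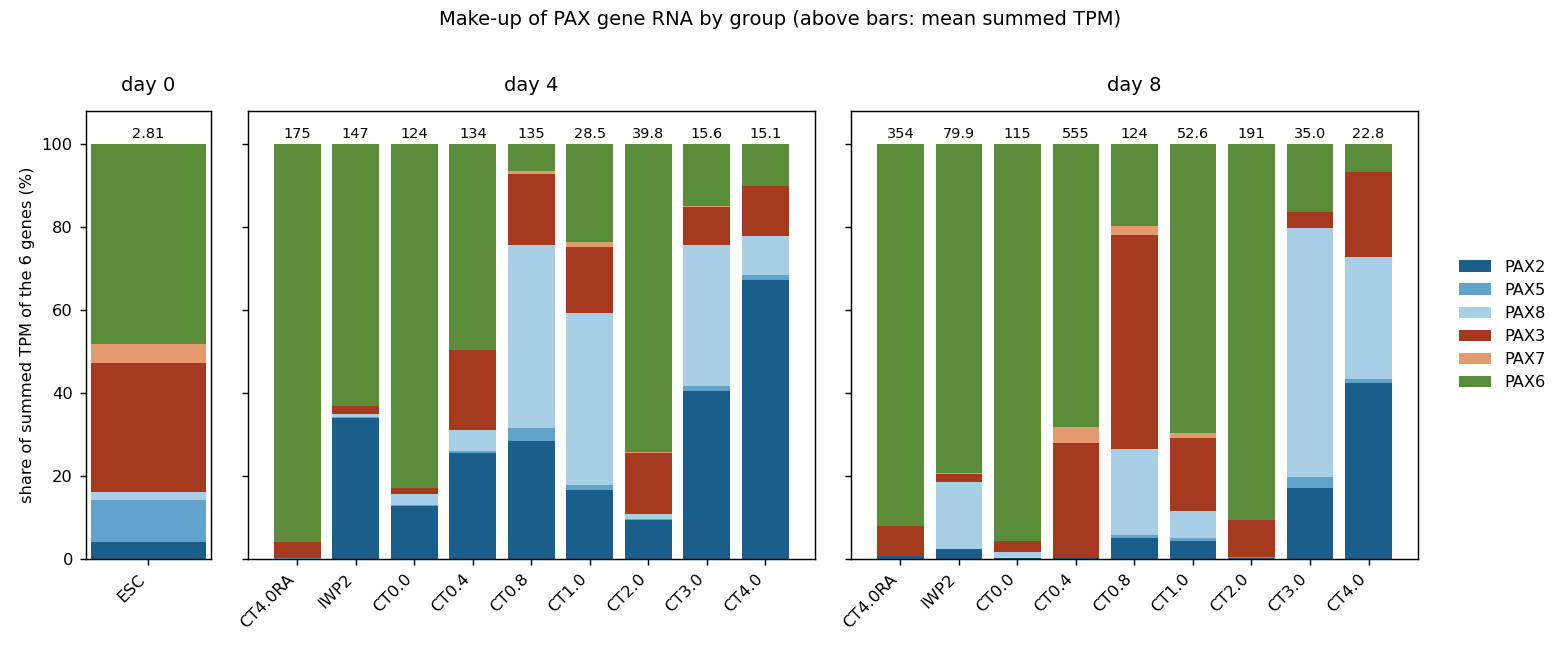
Share of each gene in the summed TPM of the 6 PAX genes (y axis, %), as the mean of 2 libraries per group, by condition at day 0, day 4 and day 8; the number above a bar is the mean summed TPM. PAX6 fills most of the bars at CT0.0, CT2.0 and CT4.0RA, PAX8 the largest part at D8 CT3.0 (60.0%) and PAX3 at D8 CT0.8 (51.5%).

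Over the 19 group means of log2(TPM + 1), pairs of one subfamily tended to be high in the same groups. Pearson's r was 0.749 for PAX3 and PAX7, 0.718 for PAX5 and PAX8, 0.504 for PAX2 and PAX8 and 0.457 for PAX2 and PAX5. Across subfamilies, PAX3 and PAX6 had 0.508 and PAX8 and PAX6 -0.381. These values describe 19 groups that share cell line, induction and days, and the higher ones rest on 1 or a few groups: PAX7 reached 1 TPM in at least 1 library of 3 groups.

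**Figure D4:**
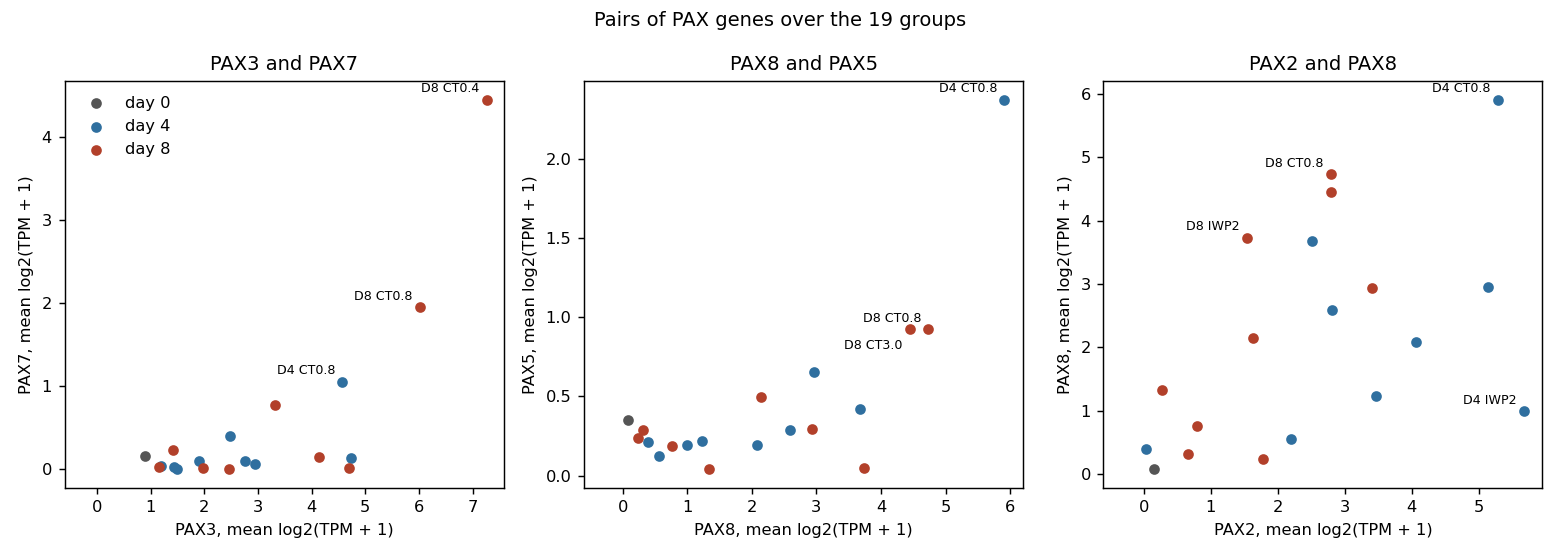
Mean log2(TPM + 1) of 3 pairs of PAX genes over the 19 groups (points), with day 0 in grey, day 4 in blue and day 8 in red. PAX7 is away from 0 in few groups, which also have high PAX3, PAX5 is highest where PAX8 is highest (D4 CT0.8), and PAX2 and PAX8 part at D4 IWP2.

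Among 11254 protein-coding genes with a mean of at least 10 TPM in some group, those with the most similar patterns were named per member. EN1, an engrailed transcription factor of midbrain and anterior hindbrain, was first for PAX5 (r = 0.842 over 19 groups) and second for PAX8 (r = 0.703), after the linker histone gene HIST1H1E (r = 0.776). For PAX3 these were ENPP2 (r = 0.905), FOXJ1, LMX1B (r = 0.869), MUSTN1 and WNT1 (r = 0.826). For PAX7 they were WNT3A (r = 0.975), WNT2B (r = 0.963), SAMD5, COLEC12 and SAMD11, each highest at D8 CT0.4 like PAX7. PAX6 was most like GAS1 (r = 0.876), FOXP4, MECOM, CCNDBP1 and FNDC5, and PAX2 like KIAA0907 (r = 0.805), HIST1H2BK, THOP1, NTF3 and AARSD1, whose highest means were all at D4 IWP2.

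Genes known to work with the isthmic PAX genes were read at D4 CT0.8, where 1.18% of all genes rose, 1.51% fell and the median change of all genes was -0.06. Of 14 isthmic organizer genes tested, 5 rose and 2 fell, with a median of 0.53. The 2 that fell were OTX2 (-1.57 ± 0.27) and SPRY1 (-1.89 ± 0.16). EN1 had 49.6 and 38.2 TPM in D4 CT0.8 and was listed at 0 in both D4 CT0.0 libraries (log2 change 5.48 ± 0.21, adjusted p = 4.0e-14). WNT1, a WNT ligand of the midbrain side of the boundary and of the dorsal midline, had 35.9 and 18.7 TPM against 0 and 0.121 TPM (4.67 ± 0.23). FGF17, an FGF ligand of the isthmus, had 12.6 and 13.4 TPM against 0.218 and 0.127 TPM (3.58 ± 0.21). FGF8, the defining ligand of the isthmus, was at -0.09 ± 0.27 and SPRY2, an inhibitor of FGF signalling, at 0.75 ± 0.17.

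Where PAX8 was high again, at D8 CT3.0, the isthmic list differed from D8 CT2.0 in 7 genes that rose and 1 that fell of 14, where 4.08% of all genes rose and 8.79% fell. The median was 1.28 for the list and -0.09 for all genes. The list was low at D8 CT2.0, where its 15 genes summed to 51.5 and 37.0 TPM. They summed to 580 and 718 TPM at D8 CT3.0, and to 535 and 518 TPM in untreated D8 CT0.0. In each of these groups 8 of the 15 had a mean of at least 1 TPM, against 13 at D8 CT0.8. In the step to D8 CT3.0 from D8 CT2.0 the 8 markers of pan-neural progenitors were lower in sum. They summed to 391 and 397 TPM at D8 CT3.0, against 1499 and 1463 TPM at D8 CT2.0. The part of this loss in the PAX6 and PAX8 values was not tested. FGF8 had 187 and 256 TPM at D8 CT3.0, against 3.44 and 1.44 TPM at D8 CT2.0 (6.06 ± 0.27, adjusted p = 1.1e-13). FGF17 had 117 and 132 TPM against 1.33 and 0.457 TPM (6.09 ± 0.21). In D8 IWP2 FGF8 had 143 and 177 TPM, against 52.1 and 61.3 TPM in D8 CT0.0 (1.48 ± 0.27, adjusted p = 0.0046). With retinoic acid at day 8 FGF8 was at 0.750 and 0.993 TPM in D8 CT4.0RA, against 382 and 408 TPM in D8 CT4.0 (-7.73 ± 0.27, adjusted p = 2.5e-15).

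The dorsal neural tube list rose at D8 CT0.4, the group in which PAX3 and PAX7 were highest, and not in every group with high PAX3. At D8 CT0.4, 15 of 16 genes tested rose and none fell, with a median of 3.65, where 3.55% of all genes rose, 2.48% fell and the median of all genes was 0.00. WNT1 had 547 and 420 TPM in D8 CT0.4, against 0.137 and 0 TPM in D8 CT0.0 (8.82 ± 0.23, adjusted p = 4.8e-17). LMX1A, a roof plate transcription factor, had 278 and 170 TPM against 0.156 and 0.0932 TPM (7.60 ± 0.25). MSX1, a BMP-responsive homeobox gene, had 316 and 151 TPM against 1.46 and 0.993 TPM (6.63 ± 0.37). WNT3, a WNT ligand, was under 1 log2 unit (0.85 ± 0.22). The list shares WNT1 with the isthmic list. D8 CT0.8 was second to D8 CT0.4 in both PAX3 and PAX7, and the list was high there too. Its 17 genes summed to 681 and 497 TPM in D8 CT0.8 and to 2469 and 1709 TPM in D8 CT0.4. In D8 CT0.0 they summed to 150 and 176 TPM. At D4 CT0.8, 4 of the 16 rose and 3 fell (1.18% and 1.51% of all genes), and at D4 CT0.4, where PAX3 rose, 3 rose and 3 fell (2.23% of all genes called in either direction). With RA at day 8, where PAX3 rose as well, 1 rose and 4 fell (4.54% and 4.33% of all genes), and the 17 listed genes summed to 73.3 and 75.8 TPM in D8 CT4.0RA, against 153 and 148 TPM in D8 CT4.0.

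**Figure D5:**
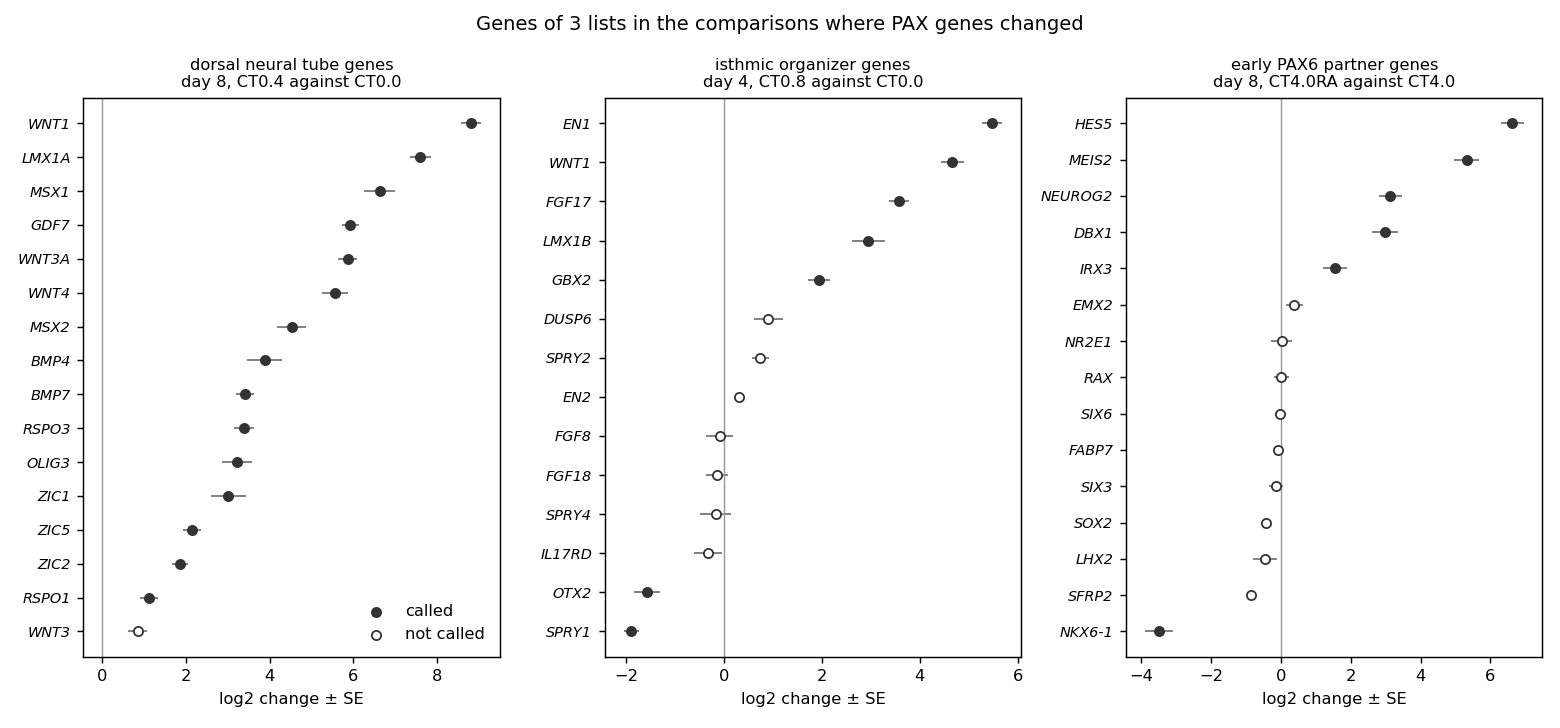
Log2 change ± SE (x axis) of every tested gene in 3 lists, filled where called: dorsal neural tube genes at D8 CT0.4 against D8 CT0.0, isthmic organizer genes at D4 CT0.8 against D4 CT0.0, and early PAX6 partner genes at D8 CT4.0RA against D8 CT4.0. All dorsal genes but WNT3 are filled to the right of 0, and EN1 (5.48) and WNT1 (4.67) lead the isthmic list and HES5 (6.62) and MEIS2 (5.32) the third.

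Genes of early PAX6 territories did not move as 1 set. At D8 CT0.4, where PAX6 was at its highest, 1 of 15 rose and 6 fell (3.55% and 2.48% of all genes), the eye and forebrain factors LHX2 and SIX3 among those that fell. LHX2 had 2.54 and 0.729 TPM in D8 CT0.4, against 85.7 and 87.2 TPM in D8 CT0.0 (-5.14 ± 0.35, adjusted p = 2.0e-10). SIX3 had 0.986 and 0.528 TPM against 46.02 and 58.2 TPM (-4.92 ± 0.20). With RA at day 8, 5 of 15 rose and 1 fell (4.54% and 4.33% of all genes). HES5, a NOTCH target of progenitors, had 118 and 145 TPM in D8 CT4.0RA, against 0.276 and 0.404 TPM in D8 CT4.0 (6.62 ± 0.33, adjusted p = 7.9e-13). MEIS2, a homeobox cofactor, had 143 and 149 TPM against 5.73 and 1.00 TPM (5.32 ± 0.35). NKX6-1, a factor of the ventral neural tube, was lower, with 0 and 0.0265 TPM against 11.5 and 9.44 TPM (-3.49 ± 0.40).

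The cofactors and partners of PAX proteins were read in the same comparisons. Of 8 PAX cofactors (PAXIP1, PAXBP1, DAXX and the Groucho-related TLE genes, with TLE5 listed under its older symbol AES), none was called at D4 CT0.8 or with RA at day 8, and TLE1 alone rose at D8 CT0.4 (67.0 and 66.7 TPM against 28.1 and 25.4 TPM, 1.29 ± 0.14). Of 8 tested genes of the sine oculis, EYA and DACH families, which act with PAX genes in eye, kidney and muscle, 1 rose and 2 fell at D4 CT0.8 (2.68% of all genes called), none rose and 2 fell at D8 CT0.4 (6.03%), and 2 rose and 1 fell with RA at day 8 (8.87%). DACH2 rose at D4 CT0.8 (1.35 and 2.93 TPM against 0.0774 and 0.245 TPM, 1.39 ± 0.27), and EYA4 fell (0.821 and 0.351 TPM against 2.63 and 2.77 TPM, -1.24 ± 0.20).

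Markers of other tissues that use these PAX genes were low. The 7 B cell markers summed to between 0.0797 and 4.07 TPM per library, with MS4A1 and VPREB1 at 0 in every group, and the 5 thyroid markers to between 0.0662 and 5.53 TPM. The 9 markers of paraxial mesoderm and muscle summed to between 1.22 and 17.004 TPM, and the 8 of intermediate mesoderm and kidney to between 0.242 and 40.3 TPM. The 8 neural crest markers summed to 65.6 and 55.7 TPM in D8 CT0.4, against 243 and 237 TPM in D8 CT0.0. Of these markers 2 rose and 1 fell, where 3.55% of all genes rose and 2.48% fell. TFAP2B had 3.89 and 2.38 TPM in D8 CT0.4 and was listed at 0 in both D8 CT0.0 libraries. SNAI2 had 17.4 and 11.6 TPM in D8 CT0.4, against 4.16 and 3.74 TPM in D8 CT0.0. Neither FOXD3 nor SOX10, defining markers of the neural crest, was called. Neuron markers summed to 685 and 577 TPM in D8 CT0.4 and to 397 and 393 TPM in D8 CT0.0. In that comparison 5 of 9 rose and 1 fell (3.55% and 2.48% of all genes). The part of neural crest cells and neurons in the PAX3 and PAX7 values was not tested.

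Time in culture changed the members in different directions. At day 8 against day 4 in the same condition, 23 of 54 gene and condition pairs were called, against 6% of all pairs over the tested genes. PAX6 was higher at day 8 in 5 conditions, from CT0.4 to CT3.0, by 1.10 to 2.54 log2 units, and was called lower in none. The CT3.0 call was lost without replicate 1 of D8 CT3.0, at 0.89. In IWP2 the PAX6 change was -0.55 ± 0.16 and in CT4.0RA 0.96 ± 0.16, under 1 log2 unit, and the CT4.0RA change was called under both other scalings, at 1.01 and 1.05. PAX3 rose in 4 (CT0.4, CT0.8, CT2.0 and CT4.0RA). Its CT0.8 call was lost without replicate 2 of D4 CT0.8, at 1.20, and its CT2.0 call without replicate 1 of D4 CT2.0, at 1.09, or of D8 CT2.0, at 1.21. PAX2 fell in 5 (IWP2, CT0.0, CT0.4, CT0.8 and CT2.0), by between -4.34 and -1.55 log2 units, and rose with CT4.0RA (1.75 ± 0.32). The CT2.0 call was lost without replicate 2 of D4 CT2.0, at -1.004. PAX8 fell at CT0.4, CT0.8 and CT1.0 and rose with IWP2, CT3.0 and CT4.0. Its CT0.8 call was lost with a pseudocount of 0.1, at -1.21, and without replicate 2 of D4 CT0.8, at -1.11, or of D8 CT0.8, at -1.12.

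The steps between neighbouring doses and the differences between days complete the comparisons. At day 4, 12 of 30 steps were called (1.58% of all gene and step pairs) and at day 8, 17 of 30 (5.03%). The step to CT4.0 from CT3.0 called no member at day 4 (0.0992% of all genes) and PAX6 and PAX8 at day 8 (0.308% of all genes), both lower. The PAX8 call in that step was lost under 5 alternatives, among them leaving out replicate 1 of D8 CT3.0 (-1.29) or either D8 CT4.0 library (-1.62 and -1.40), with adjusted p-values of 0.0193 to 0.262 over all alternatives. Of 24 tests of a treatment effect between the days, 9 were called (5.58% of all such tests), with 4 of them for CT0.4.

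The levels can be ordered over the 19 groups. For PAX6, 14 of 18 neighbours in that order did not overlap in their libraries, and it ran from D8 CT0.4 through D8 CT4.0RA, D8 CT2.0 and D4 CT4.0RA down to stem cells. For PAX2 the order began with D4 IWP2, D4 CT0.8 and D4 CT0.4, of which the last 2 overlapped, and 7 of 18 neighbours were apart. For PAX8 it began with D4 CT0.8, followed by the overlapping pair D8 CT0.8 and D8 CT3.0, with 6 of 18 apart. PAX3 ran from D8 CT0.4 to D8 CT0.8 and then to D4 CT0.4, D8 CT4.0RA and D4 CT0.8, which overlapped one another in turn, with 6 of 18 apart. PAX7 had 3 and PAX5 4 neighbours apart, and below the first few groups their order carries no information.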

How the data were processed

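Poly(A) RNA of 38 libraries was measured by paired-end RNA sequencing. The authors deposited 1 table of TPM values per gene, which gives no counts, so the depth of each library is unknown and no counting error is given. Per the submitters' processing notes, CASAVA 1.7 and Salmon 0.8.2 were used with hg38. Libraries were sequenced on 1 of 2 instruments that the labels do not tie to samples, so this batch could not be tested.

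After a filter that asked for 1 TPM or more in 2 or more libraries, 28221 genes were fitted as log2(TPM + 1) with limma 3.58.1 in R 4.3.3, with 19 group means, 19 residual degrees of freedom, a trended prior and Benjamini-Hochberg adjustment within each of 40 contrasts. Every adjusted p given is from limma. The fit was tested on simulated data with 200 changed genes. The members and gene lists were chosen with earlier results of these data known, so list counts are descriptions. From each list and comparison the text draws on the 3 largest calls whose libraries did not overlap and the most abundant gene not called. Genes named outside this rule, such as FGF8, EYA4 and TFAP2B, were chosen after their values were seen. Values of some marker genes are not reported here. Replicate numbers did not pair the libraries: over 171 pairs of groups the correlation of replicate deviations was between -0.043 and 0.037. Alternatives were a pseudocount of 0.1, no filter, a filter at 5 TPM, 2 other scalings, only the days compared, a replicate block and leaving out each library.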

Additional observations from a re-analysis of the deposited data

Results flagged for a closer look

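In 9 of 24 tests the treatment effect of a member differed between day 8 and day 4. Each value is the day 8 effect minus the day 4 effect in log2 units, from limma over all tested genes.

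For 0.4 µM CT against untreated cells the differences were 4.33 ± 0.30 for PAX7 (adjusted p = 1.3e-09), 2.41 ± 0.23 for PAX6 (adjusted p = 1.6e-07), 1.98 ± 0.46 for PAX3 (adjusted p = 0.0046) and -1.44 ± 0.45 for PAX8 (adjusted p = 0.035). The PAX8 call was lost under 6 alternatives, among them leaving out either D8 CT0.0 library (-1.46 and -1.42), with adjusted p-values up to 0.152.

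For 4.0 µM CT against untreated cells the differences were 3.73 ± 0.46 for PAX2 (adjusted p = 5.6e-06) and 2.45 ± 0.45 for PAX8 (adjusted p = 5.0e-04). For IWP2 the difference was 3.49 ± 0.45 for PAX8 (adjusted p = 2.3e-04). For RA added to 4.0 µM CT it was -1.85 ± 0.45 for PAX8 (adjusted p = 0.0062) and 1.81 ± 0.46 for PAX2 (adjusted p = 0.0080).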

How the results depend on the processing

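Of 111 called member changes, 90 kept their call under every alternative, 21 lost it under at least 1 and none changed sign. Without 1 library at a time the counts of calls were 14 to 20 against untreated cells at day 4, 18 to 21 at day 8, 12 to 13 and 15 to 17 for dose steps at day 4 and day 8, 21 to 24 for day 8 against day 4 and 8 to 10 for differences between the days. Leaving out the libraries that stood apart, 1 at a time, gave 20 calls against untreated cells at day 4 and 18 to 20 at day 8. The replicate block left every count as it was, with 20 calls against untreated cells on each day. A pseudocount of 0.1 gave 17 calls at day 4 and 26 at day 8. The other scalings moved the median change of all genes by up to 0.28. At 5 TPM, PAX5 was not tested.

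Changes that were not called and turned sign without 1 library were those of PAX2 at D4 CT0.8 against D4 CT0.4 (range -0.099 to 0.40), PAX3 in the same step (-0.41 to 0.077), and PAX6 at day 8 against day 4 in CT0.0 (-0.12 to 0.29) and CT4.0 (-0.14 to 0.20). The cause was not tested. TPM keeps no depth, so the precision of values under 1 TPM, most of those of PAX5 and PAX7, cannot be given.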
